A study of Mus musculus and Homo sapiens with 19 samples.

Results

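The DNA replication genes described here are 35 genes chosen by name: the 6 subunits of the MCM2-7 helicase, its loaders and activators, the replicative polymerases and primase, the sliding clamp and its loader, the Okazaki fragment enzymes, ribonucleotide reductase, the G1/S regulators Ccne1, Ccne2 and E2f1, and the chromatin assembly factor subunits Chaf1a and Chaf1b. The rule that picks them uses gene symbols and no measured value. All 35 were present in each set of tables, among 24421 gene symbols in the 4T1 knockdown, 57992 human genes in MDA-MB-231 and 55573 mouse genes in the co-cultures. The series measured polyadenylated RNA in 19 libraries of cultured cells. PHGDH, the gene it manipulates, encodes the first enzyme of serine synthesis.

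The first experiment held 3 libraries of 4T1, a mouse mammary tumour line, carrying pLKO.1 shPHGDH (shPHGDH below), and 3 of 4T1 carrying a pLKO.1 scramble shRNA (shSCR). The second held 3 libraries of the human breast cancer line MDA-MB-231 labelled as overexpressing PHGDH from a pLHCX cDNA vector. It also held 3 control libraries, whose vector the labels do not give. The count columns read as these controls are headed SCR, not control. They were taken as the controls of the same number because no other columns remained, so this assignment is an assumption. The third held 7 single libraries: 4T1 grown with Bend3, EMT6.5 grown with Bend3, Bend3 grown with 4T1 and Bend3 grown with EMT6.5, each sorted by FACS from the co-culture, and 4T1, EMT6.5 and Bend3 grown alone. EMT6.5 is a second mouse mammary tumour line and Bend3 a mouse endothelial line. The labels give 1 shRNA name per arm, and do not say whether transduced cells were clones or pools, or whether replicates were separate cultures, so p-values reflect only how these libraries vary, and that variation may be technical.

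DNA replication is prepared in G1, when CDC6 and CDT1 load the MCM2-7 ring onto origins, a step called licensing that geminin blocks later in the cycle. In S phase MCM10, CDC45 and the GINS complex turn the ring into an active helicase, polymerase alpha with primase starts each strand, and polymerases delta and epsilon extend it on the PCNA clamp. Ribonucleotide reductase supplies the deoxynucleotides. Most of these genes are known targets of E2F factors, which are released when cyclin-dependent kinases inactivate the retinoblastoma protein, and their mRNAs are used as markers of proliferation.

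The promoters were searched for 2 exact E2F motifs, TTTCCCGC and TTTGGCGC, on both strands, which read GCGGGAAA and GCGCCAAA on the other strand. RefSeq promoter entries on GRCm38.p6, 250 bases before and 50 after the start, were found for 26 of the 35 genes. Some genes have several entries, 30 in all. Either motif was present in 10 of the 30 entries, against 1.56% of all 32851 entries. Those 10 belonged to Mcm3, Mcm5, Mcm6, Mcm7, Cdc6, Cdt1, Gins3, Pola1, Pold1 and Rfc3. The CCAAT letters, searched on both strands and read as ATTGG on the other, were present in 16 of the 30 entries, of 15 genes, against 37.4% of all entries. Neither E2F motif contains CCAAT or ATTGG. The 150 bases before the start are shown for 4 genes whose levels the knockdown moved in different directions, with motif letters in capitals. Mcm6 and Pola1 were lower in shPHGDH, Cdc6 and Mcm10 higher; the first 3 carry an E2F motif and Mcm10 carries CCAAT letters and no exact E2F motif.
Mcm6, chr1:128359706-128359855, minus strand: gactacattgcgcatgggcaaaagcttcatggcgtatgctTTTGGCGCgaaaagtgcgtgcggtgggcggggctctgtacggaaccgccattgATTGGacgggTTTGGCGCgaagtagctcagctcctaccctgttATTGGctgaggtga
Pola1, chrX:93632156-93632305, minus strand: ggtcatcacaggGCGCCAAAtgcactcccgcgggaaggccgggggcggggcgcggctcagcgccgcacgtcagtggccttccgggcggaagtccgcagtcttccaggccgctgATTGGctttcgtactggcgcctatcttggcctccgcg
Cdc6, chr11:98908001-98908150, plus strand: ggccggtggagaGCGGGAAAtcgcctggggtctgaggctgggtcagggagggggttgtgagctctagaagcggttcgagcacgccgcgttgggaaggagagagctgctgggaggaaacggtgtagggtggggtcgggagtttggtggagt
Mcm10, chr2:5012792-5012941, minus strand: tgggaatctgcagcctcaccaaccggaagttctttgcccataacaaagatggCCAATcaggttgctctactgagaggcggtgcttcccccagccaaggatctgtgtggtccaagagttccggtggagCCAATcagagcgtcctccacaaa
Mcm6 held TTTGGCGC at both -110 and -47 from the start, and Pola1 and Cdc6 each held 1 match at -138. A match is a description of these letters and not a measured binding site.

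The knockdown libraries held 12.7 to 20.5 M assigned counts, those of MDA-MB-231 19.5 to 23.8 M and the co-culture libraries 4.27 to 7.67 M. As counts per M assigned counts, the 35 genes took 5129 to 5366 in the knockdown libraries, 3817 to 3928 in the MDA-MB-231 libraries and 1073 to 2967 in the co-culture set, where 48.2% to 55.3% of entries were recorded as aligned to several places. Levels are TMM-scaled counts per M (CPM) unless library totals are named. Of 16 epithelial markers, 15 passed the low-count filter in 4T1 and 8 in MDA-MB-231, where CDH1 averaged 0.13 and 0.0774 CPM in the labelled and control libraries. EMT6.5 grown alone had Cdh1 at 0.123 CPM and Epcam at 0.246 CPM but Krt18 at 384.2 CPM and Col1a2 at 1515 CPM, so its defining epithelial junction markers were near 0. Bend3 grown alone held 10740 CPM summed over 16 endothelial markers.

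Knocking down Phgdh in 4T1 left the summed level of the 35 genes almost where it was, while 27 of them changed, in both directions. Phgdh itself averaged 20.86 ± 0.745 CPM in shPHGDH and 167.6 ± 4.58 CPM in shSCR (SD, n = 3 each), without overlap, a log2 fold change of -2.999 (SE 0.04, edgeR adjusted p = 5.16e-28). The 35 genes summed to 5229 ± 59.2 CPM in shPHGDH and 5225 ± 61.0 CPM in shSCR (SD, n = 3 each), and the groups overlapped. With library totals in place of TMM, the sum was 2.67% lower in shPHGDH and the groups did not overlap (5129 to 5175 against 5230 to 5366). Of the 35 genes tested, 12 rose and 15 fell in shPHGDH, 77.1% called, against 59.7% of all 11568 tested genes, of which 30.1% were higher and 29.6% lower. The groups did not overlap for 29 of the 35, against 63.2% of all genes. The changes were small: the median absolute log2 fold change was 0.17 over the 35 genes and 0.20 over all genes, and the signed medians were -0.08 and -0.01. RNA from a culture cannot tell fewer cycling cells from less RNA per cell.

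**Figure D1:**
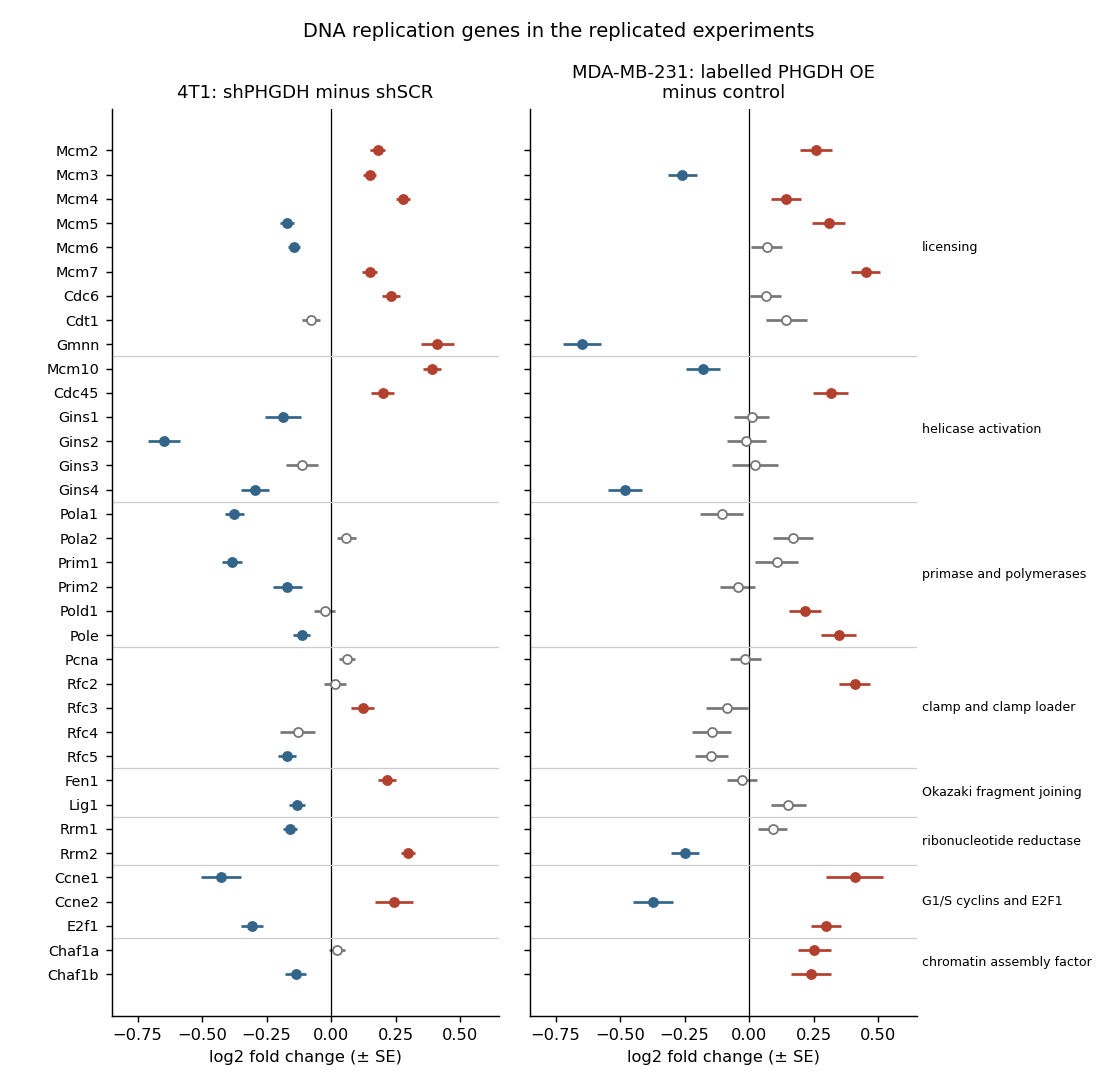
Log2 fold change (± SE) of each of the 35 genes, in rows grouped by role, for shPHGDH minus shSCR in 4T1 (left) and for labelled PHGDH-overexpressing minus control libraries in MDA-MB-231 (right, n = 3 each). Red points were called higher, blue points lower and open points were not called at an edgeR adjusted p of 0.05; 27 points are filled on the left and 18 on the right.

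Of the 9 licensing genes, 6 rose in shPHGDH, 2 fell and 1 was not called. Gmnn, the licensing inhibitor geminin, moved most, at 52.2, 54.5 and 48.7 CPM in shPHGDH, against 39.7, 34.0 and 42.4 CPM in shSCR. All 3 shPHGDH libraries lay above the 3 shSCR libraries, and the log2 fold change was 0.41 (SE 0.06, edgeR adjusted p = 2.30e-06). Cdc6, the MCM loader, rose by 0.23 on the log2 scale. Cdt1, its partner in loading, was not called (-0.08, edgeR adjusted p = 0.0503), and its call appeared with library totals (adjusted p = 0.00432) and without shSCR replicate 3 (adjusted p = 0.00746). The ratio of Gmnn to Cdt1 CPM was 0.36, 0.39 and 0.35 in shPHGDH, against 0.26, 0.22 and 0.29 in shSCR, with no overlap.

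The 6 subunits of the MCM2-7 ring split 4 to 2. Mcm2 (log2 0.18), Mcm3 (0.15), Mcm4 (0.28) and Mcm7 (0.15) rose, and Mcm5 (-0.17) and Mcm6 (-0.14) fell, with edgeR adjusted p between 7.75e-10 for Mcm4 and 6.82e-05 for Mcm7. Mcm3 was at 414.9, 394.4 and 404.1 CPM in shPHGDH, against 366.1, 367.3 and 360.5 CPM in shSCR. Mcm5 was at 398.5, 379.7 and 389.0 CPM in shPHGDH, against 427.3, 453.6 and 432.5 CPM in shSCR. Neither gene's groups overlapped, and in shPHGDH the 2 genes stood close in CPM. Per kb of transcript, Mcm6 was the most abundant subunit in every library, at 155.7 ± 1.63 CPM per kb in shPHGDH and 171.9 ± 4.79 in shSCR (SD, n = 3 each). Mcm5 followed in shSCR (129.5 ± 4.11 CPM per kb) ahead of Mcm3 (120.3 ± 1.196), whereas in shPHGDH Mcm3 (133.4 ± 3.39) stood ahead of Mcm5 (115.1 ± 2.78). Mcm2, Mcm4 and Mcm7 were the lowest 3 in both groups. This order is that of the knockdown libraries only. In the single library of 4T1 grown alone, from another set of tables, Mcm7 (49.8 CPM per kb) came directly after Mcm6 (58.1). The most abundant subunit was 1.92, 1.91 and 1.94 times the least abundant in the shPHGDH libraries, against 2.31, 2.44 and 2.36 times in the shSCR libraries, so the 6 levels lay closer together in shPHGDH. With 3 against 3 libraries an exact permutation test cannot go below 0.10, and none is given. Mcm7 overlaps exons of Cops6 and Ap4m1 on the opposite strand, and whether strand was used in counting was not given in the sources used here.

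**Figure D2:**
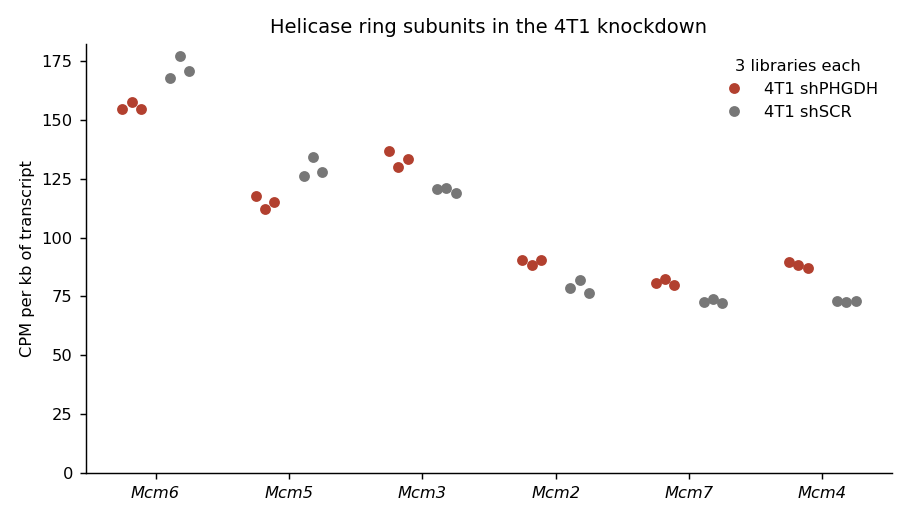
CPM per kb of principal transcript for the 6 MCM2-7 subunits in each 4T1 library, shPHGDH left of shSCR within each gene. Mcm6 and Mcm5, the most abundant pair in shSCR, are lower in shPHGDH, and the other 4 subunits are higher.

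Helicase activators moved apart from each other. Mcm10, which helps convert the loaded ring, was at 126.7, 119.7 and 129.0 CPM in shPHGDH, against 97.4, 95.8 and 94.2 CPM in shSCR (log2 0.39, SE 0.03, edgeR adjusted p = 1.87e-10), with every shPHGDH library above every shSCR library. Cdc45, the helicase cofactor, rose by 0.20. Of the 4 GINS subunits, Gins1 (-0.19), Gins2 (-0.65) and Gins4 (-0.30) fell, and Gins3 was not called (-0.11, adjusted p = 0.118). Gins2 had the largest change among the 35 genes, at 21.5, 20.8 and 20.6 CPM in shPHGDH, against 31.9, 33.4 and 32.9 CPM in shSCR (SE 0.06, edgeR adjusted p = 7.86e-10), and its groups stood far apart. Its exons overlap those of Gse1 on the opposite strand over 2758 bases. The Gins1 call was lost with DESeq2 (adjusted p = 0.142) and without shSCR replicate 3, shPHGDH replicate 2 or shPHGDH replicate 3 (edgeR adjusted p = 0.115, 0.0928 and 0.0932).

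Of the 6 primase and polymerase genes 4 fell and 0 rose, and their sum was 675.6 ± 10.99 CPM in shPHGDH and 761.4 ± 1.33 CPM in shSCR (SD, n = 3 each), a difference of -11.3% without overlap between the groups. Prim1, the catalytic primase subunit, was at 63.1, 61.7 and 62.2 CPM in shPHGDH, against 78.1, 81.7 and 84.0 CPM in shSCR (log2 -0.38, SE 0.04, edgeR adjusted p = 2.37e-09). Pola1, the catalytic subunit of polymerase alpha, fell by 0.37, and Prim2, the large primase subunit, by 0.17. Pola2, the polymerase alpha B subunit, was not called (0.06, adjusted p = 0.164). Pole, the catalytic subunit of polymerase epsilon, was at 205.3, 199.2 and 210.1 CPM in shPHGDH, against 219.2, 231.5 and 215.0 CPM in shSCR. Its groups did not overlap (log2 -0.11, SE 0.03, edgeR adjusted p = 0.00383), but the call was lost with sequencing lane in the model (adjusted p = 0.183) and within lane 6 alone (0.161). Pold1, the catalytic subunit of polymerase delta, was not called (-0.03, adjusted p = 0.610). The Prim2 call was lost with DESeq2 (adjusted p = 0.0714) and without 1 of 3 libraries, shSCR replicate 3 or shPHGDH replicates 2 or 3 (edgeR adjusted p between 0.0538 and 0.0801).

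Most clamp and clamp loader genes were not called. Pcna, the sliding clamp, was at 201.6, 201.2 and 200.8 CPM in shPHGDH, against 190.1, 198.7 and 189.3 CPM in shSCR, and was not called (log2 0.06, edgeR adjusted p = 0.0854); it has the annotated pseudogenes Pcna-ps1 and Pcna-ps2, which could share reads. Of the loader subunits, Rfc5 fell, at 84.6, 88.1 and 86.4 CPM in shPHGDH, against 94.7, 98.8 and 97.8 CPM in shSCR (log2 -0.17, SE 0.03, edgeR adjusted p = 1.16e-04). Rfc3 rose by 0.12, a call lost with DESeq2, with library totals, without shSCR replicate 1 and with lane in the model (adjusted p between 0.0874 and 0.13) and within lane 6 (0.173). Rfc2 (0.01) and Rfc4 (-0.13) were not called.

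The enzymes that finish lagging-strand fragments moved in opposite directions. Fen1, the flap endonuclease, was at 123.1, 121.7 and 124.9 CPM in shPHGDH, against 105.6, 109.1 and 103.7 CPM in shSCR (log2 0.22, SE 0.03, edgeR adjusted p = 2.83e-06). Lig1, the ligase that seals the fragments, fell by 0.13 (adjusted p = 5.94e-04). The groups of neither gene overlapped. Fen1 has 2422 exon bases and overlaps exons on the opposite strand over 2039 bases. Lig1 has 4268 exon bases and overlaps such exons over 247 bases.

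Ribonucleotide reductase, the enzyme that makes deoxynucleotides from a large and a small subunit, changed in composition at the mRNA level. Rrm2, the S-phase small subunit, was at 361.9, 348.2 and 338.5 CPM in shPHGDH, against 288.4, 286.0 and 278.2 CPM in shSCR (log2 0.30, SE 0.03, edgeR adjusted p = 6.25e-10). Rrm1, the large subunit, fell by 0.16 (adjusted p = 4.44e-06). The ratio of Rrm2 to Rrm1 CPM was 0.90, 0.91 and 0.89 in shPHGDH, against 0.66, 0.66 and 0.65 in shSCR, a clear separation between the groups.

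The G1/S regulators fell, apart from Ccne2. Ccne1, cyclin E1, was at 15.9, 14.4 and 15.1 CPM in shPHGDH, against 21.4, 21.15 and 18.75 CPM in shSCR (log2 -0.43, SE 0.08, edgeR adjusted p = 2.58e-05). E2f1, the transcription factor, was at 55.6, 53.0 and 58.6 CPM in shPHGDH, against 68.7, 70.7 and 68.3 CPM in shSCR (log2 -0.31, SE 0.04, edgeR adjusted p = 6.31e-07). Both genes were lower in each shPHGDH library than in any shSCR library. Ccne2, cyclin E2, was at 22.5, 19.7 and 23.8 CPM in shPHGDH, against 17.8, 19.4 and 19.0 CPM in shSCR. Its groups almost touched (log2 0.24, SE 0.07, edgeR adjusted p = 0.00611), and the call was lost without shPHGDH replicate 3 (adjusted p = 0.0672), with lane in the model (0.0677) and within lane 6 (0.0523). The ratio of Ccne2 to Ccne1 CPM was 1.42, 1.37 and 1.58 in shPHGDH, against 0.83, 0.91 and 1.01 in shSCR. Of the chromatin assembly factor subunits, which deposit histones behind the fork, Chaf1b was at 70.1, 64.9 and 65.2 CPM in shPHGDH, against 74.5, 72.7 and 73.1 CPM in shSCR (log2 -0.14, SE 0.04, edgeR adjusted p = 0.00434). That call was lost with DESeq2 (adjusted p = 0.0523), and Chaf1a was not called (0.02, adjusted p = 0.563).

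By promoter letters, the knockdown calls divided as follows, with no test. Of the 10 genes with an exact E2F match, 4 rose, 3 fell and 3 were not called; of the 16 without one, 5 rose, 7 fell and 4 were not called. Of the 15 genes with CCAAT letters 7 rose, 5 fell and 3 were not called; of the 11 without them, 2 rose, 5 fell and 4 were not called. In the promoters printed above, Mcm6 with 2 matches fell, Pola1 with 1 fell, and Cdc6 with 1 rose.

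Whole chromosomes differed between the arms: the median over all tested genes was -0.25 on chromosome 8, where 434 of 624 genes were called lower, -0.22 on chromosome 4 and 0.25 on chromosome 13. It was 0.28 on chromosome 15 and 0.51 on chromosome 14, and neither of these holds any of the 35. Chromosome 8 holds Mcm5, Cdt1, Gins2, Gins3 and Gins4, and all 5 had negative log2 fold changes. After subtraction of the chromosome median, Gins2 stood at -0.39, Gins4 at -0.04, Mcm5 at 0.08, Gins3 at 0.14 and Cdt1 at 0.17, so that Mcm5, Gins3 and Cdt1 changed sign, as did Pola2 (-0.04) and Pold1 (0.05) on other chromosomes; of these 5 genes Mcm5 alone had been called. Over the 35 genes, 20 moved by more than their SE without a called gene changing sign, among them Cdc45, which stood at 0.08. Gmnn, on chromosome 13, stood at 0.17, and Mcm10 (0.42), Ccne2 (0.47), Pola1 (-0.36), Ccne1 (-0.35) and Prim1 (-0.25) kept the direction of their fitted values. What shifted the chromosomes was not tested.

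**Figure D3:**
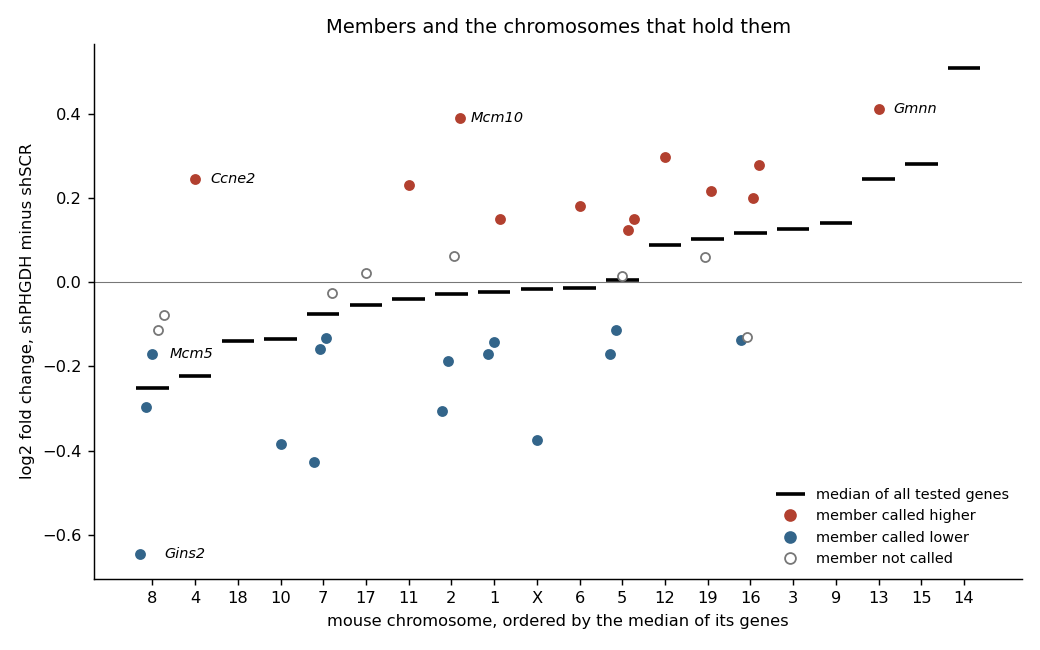
Log2 fold change (shPHGDH minus shSCR) of the 35 genes (points) beside the median of all tested genes on the same mouse chromosome (bars), with chromosomes in order of their medians. All 5 genes on chromosome 8, where the median is lowest at -0.25, lie below 0, while Mcm10 and Ccne2 lie far above the medians of their chromosomes.

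The libraries fell into lanes unequally, with shSCR replicates 1 and 2 on lane 5 and the other 4 libraries on lane 6, and shPHGDH replicate 1 stood apart from replicates 2 and 3 of its group (chi-square per degree of freedom 14.9 and 20.8, against 1.76 between those). With lane in the model 10 of the 35 genes were higher and 14 lower, and within lane 6, where the spread of the single shSCR library is taken to equal that of the shPHGDH ones, 11 were higher and 14 lower. Without shPHGDH replicate 1 the counts were 12 and 15, with every one of the 35 genes on the same side of the threshold. Markers of cell types also moved in this comparison, where 59.7% of all genes were called. Of 15 epithelial markers tested 4 were higher and 10 lower in shPHGDH. All tested markers of other types were higher: 3 endothelial (of 16 listed), 2 fibroblast (of 8) and 3 leukocyte (of 8). Flt1 was at 42.9 ± 1.49 CPM in shPHGDH and 25.1 ± 2.38 CPM in shSCR, and Eng at 88.8 ± 1.05 and 62.0 ± 3.22 CPM (SD, n = 3 each). Some others were near the floor, in the same order: Col1a1 at 1.21 and 0.67 CPM, Cd68 at 3.93 and 1.89, and Lyz2 at 1.16 and 0.37 with overlapping groups. The remaining listed markers of these types did not pass the low-count filter, among them Cdh5 (0.34 and 0.12 CPM) and Pecam1 (0.20 and 0.39 CPM). The part of these markers in the replication genes was not tested.

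Further genes of the pathway, 85 in 5 lists, also went in both directions. Of 16 origin recognition and firing genes 5 rose and 6 fell, with Mtbp, an origin firing factor, higher (0.36) and Orc3 (-0.32) and Mcm8 (-0.34) lower. After subtraction of the chromosome median Mtbp stood at 0.08, Orc3 at -0.09 and Mcm8 at -0.31. Among 20 polymerase subunits and fork factors 6 rose and 9 fell; Wdhd1, a polymerase alpha anchor, rose by 0.63 on chromosome 14, where the median was 0.51, and Rpa3, a subunit of the single-strand binding protein, by 0.44. Pold4 was named by size (0.88) but lay at 1.43 and 0.70 CPM in shPHGDH and shSCR with overlapping groups, and lost its call under 9 alternatives, among them without shPHGDH replicate 2 (log2 0.38, edgeR adjusted p = 0.424). Of 10 genes of deoxynucleotide supply 4 rose and 3 fell, with Cmpk1 (-0.35), Dctpp1 (-0.29) and the dNTP hydrolase Samhd1 (-0.28) lower. Of 25 genes of G1/S control 13 rose and 7 fell. Cdkn1a, the CDK inhibitor p21, was at 16.0 ± 1.38 CPM in shPHGDH and 5.81 ± 0.36 CPM in shSCR (log2 1.48, SE 0.10, edgeR adjusted p = 5.67e-13), while Cdk2 (-0.54), the kinase partner of cyclin E, and the pocket protein gene Rbl2 (-0.69) fell. Of 14 chromatin copying genes 6 rose and 4 fell, led by Supt16 (0.67), a histone chaperone gene also on chromosome 14, with Atad2 higher (0.32) and Asf1b lower (-0.34). After the same subtraction Wdhd1 stood at 0.12, Cmpk1 at -0.13, Supt16 at 0.16, Atad2 at 0.04 and Asf1b at -0.09. Cdkn1a stood at 1.53, Rpa3 at 0.45 and Rbl2 at -0.44. The medians of the 5 lists ran between -0.05 and 0.15, against -0.01 over all genes.

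In MDA-MB-231 the libraries labelled PHGDH-overexpressing had more of several MCM, polymerase and chromatin assembly genes and less of GMNN, GINS4 and CCNE2. PHGDH mRNA went against the label: it was at 5.98, 4.53 and 5.71 CPM in the libraries labelled PHGDH-overexpressing, against 15.5, 15.6 and 18.3 CPM in the control libraries, a log2 fold change of -1.61 (SE 0.12, edgeR adjusted p = 5.76e-10). Every direction below is therefore between libraries as labelled. Of the 35 genes 12 were higher and 6 lower in the labelled libraries, 51.4% called, against 44.5% of all 17663 tested genes, of which 21.6% (3816) were higher and 22.9% (4048) lower. With library totals the split over all genes was 3053 higher and 4900 lower, and that of the 35 genes 10 and 8. The groups did not overlap for 21 of the 35, against 52.5% of all genes. The median log2 fold change was 0.07, against -0.01 over all genes. The 35 genes summed to 3971 ± 44.1 CPM in the labelled libraries and 3800 ± 69.6 CPM in the controls (SD, n = 3 each), 4.49% higher without overlap, but with library totals the difference was 0.27% and the groups overlapped.

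Among the licensing genes, MCM7 (0.45), MCM5 (0.31), MCM2 (0.26) and MCM4 (0.14) were higher and GMNN (-0.65) and MCM3 (-0.26) lower in the labelled libraries. GMNN, which moved most of all 35, was at 49.7, 57.2 and 47.8 CPM in the labelled libraries, against 81.99, 77.05 and 83.63 CPM in the controls (SE 0.07, edgeR adjusted p = 2.5e-07). MCM5 was at 151.4, 138.9 and 162.6 CPM in the labelled libraries, against 126.2, 119.4 and 119.9 CPM in the controls. MCM3 was at 290.0, 288.3 and 300.4 CPM in the labelled libraries, against 356.9, 340.1 and 353.7 CPM in the controls. None of these groups overlapped. MCM6 (0.07), CDC6 (0.06) and CDT1 (0.14) were not called. The MCM4 call was lost with library totals, without a filter and without any of 4 libraries, controls 2 and 3 and labelled replicates 1 and 3 (adjusted p between 0.0608 and 0.225).

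Of the helicase activators CDC45 was higher (0.32) and GINS4 and MCM10 lower. GINS4 was at 57.4, 58.3 and 62.0 CPM in the labelled libraries, against 86.2, 80.6 and 81.0 CPM in the controls (log2 -0.48, SE 0.07, edgeR adjusted p = 3.21e-06), a wide gap between the groups. MCM10 was at 69.4, 67.4 and 64.7 CPM in the labelled libraries, against 79.7, 73.9 and 74.5 CPM in the controls (log2 -0.18, edgeR adjusted p = 0.0291), and its call was lost without control replicate 1 (0.119) and without labelled replicates 1 (0.0558) or 3 (0.0847). GINS1 (0.01), GINS2 (-0.01) and GINS3 (0.02) were not called. Of the primase and polymerase genes, POLE was at 126.0, 116.8 and 137.0 CPM in the labelled libraries, against 103.2, 102.5 and 92.6 CPM in the controls (log2 0.35, SE 0.07, edgeR adjusted p = 2.42e-04), POLD1 was higher by 0.22, and POLA1 (-0.11), POLA2 (0.17), PRIM1 (0.11) and PRIM2 (-0.04) were not called.

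RFC2, a clamp loader subunit, was at 109.8, 108.4 and 117.6 CPM in the labelled libraries, against 84.7, 82.6 and 85.4 CPM in the controls (log2 0.41, SE 0.06, edgeR adjusted p = 1.08e-05), and the groups stood far apart. PCNA, RFC3, RFC4, RFC5, FEN1 and LIG1 were not called, with log2 fold changes between -0.15 and 0.15. RRM2 was at 273.3, 267.0 and 258.2 CPM in the labelled libraries, against 308.6, 316.1 and 323.4 CPM in the controls (log2 -0.25, SE 0.06, edgeR adjusted p = 8.66e-04), and RRM1 was not called (0.09).

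CCNE1 was at 13.5, 13.7 and 12.8 CPM in the labelled libraries, against 8.85, 11.5 and 9.85 CPM in the controls (log2 0.41, SE 0.11, edgeR adjusted p = 0.00464). CCNE2 was at 35.8, 42.2 and 34.9 CPM in the labelled libraries, against 50.5, 48.6 and 47.3 CPM in the controls (log2 -0.37, SE 0.08, edgeR adjusted p = 4.93e-04). E2F1 was at 124.2, 121.6 and 129.9 CPM in the labelled libraries, against 100.3, 102.5 and 102.5 CPM in the controls (log2 0.30, SE 0.06, edgeR adjusted p = 2.67e-04). All 3 genes separated the groups without overlap, CCNE1 and E2F1 upward and CCNE2 downward. CHAF1A was at 98.7, 90.9 and 99.1 CPM in the labelled libraries, against 76.5, 82.8 and 83.0 CPM in the controls (log2 0.25, SE 0.06, edgeR adjusted p = 0.00285). CHAF1B was at 39.1, 43.6 and 45.5 CPM in the labelled libraries, against 35.8, 33.9 and 38.9 CPM in the controls (log2 0.24, edgeR adjusted p = 0.0159); its groups almost touched, and the call was lost with library totals (0.0629), without control replicate 2 (0.0994) and without labelled replicate 3 (0.0737).

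Of the wider lists in MDA-MB-231, 1 of 16 origin genes was higher and 6 lower, with TICRR (0.46), an origin firing factor, higher and ORC4 (-0.39) and TOPBP1 (-0.35) lower. Of 20 polymerase subunits and fork factors 5 were higher, with POLD3 (0.37) the furthest, and 5 lower, with RFC1 (-0.40) and WDHD1 (-0.31). Of 10 genes of deoxynucleotide supply 3 were higher, among them thymidine kinase TK1 (0.27), and 3 lower, among them RRM2B (-0.58), the p53-inducible small subunit of ribonucleotide reductase, and CMPK1 (-0.33). Of 14 chromatin copying genes 5 were higher, among them the histone chaperone ASF1B (0.28) and UHRF1 (0.26), and 4 lower, among them ATAD2 (-0.38). G1/S control held 4 higher and 9 lower of 25. CCND1, cyclin D1, was at 604.7 ± 11.1 CPM in the labelled libraries and 970.5 ± 3.49 CPM in the controls (log2 -0.68, SE 0.05, edgeR adjusted p = 8.28e-10), and E2F3 (-0.66) and CCND2 (-1.17, at 2.51 and 5.66 CPM) were also lower. The medians of these lists lay between -0.18 and 0.06.

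Set side by side, 15 of the 35 genes were called in both experiments, and 10 of the 15 went in opposite directions. Over all 9502 genes matched by symbol between the experiments, 3112 were called in both and 1572 of them, 50.5%, were opposite. Gmnn, Mcm10, Mcm3, Rrm2 and Ccne2 were higher in shPHGDH 4T1 and lower in the labelled MDA-MB-231 libraries. Mcm5, Pole, Ccne1, E2f1 and Chaf1b were lower in shPHGDH 4T1 and higher in the labelled MDA-MB-231 libraries. Mcm2, Mcm4, Mcm7 and Cdc45 were higher in both, and Gins4 was lower in both. Under some alternative fits Pole and Ccne2 lost their knockdown calls, Mcm10 and Mcm4 their MDA-MB-231 calls, and Chaf1b its calls in both experiments. After subtraction of the chromosome median in 4T1, Mcm5 stood at 0.08 and Gins4 at -0.04. The ratio of RRM2 to RRM1 CPM was 0.96, 0.95 and 0.93 in the labelled libraries, against 1.12, 1.28 and 1.21 in the controls, and that of CCNE2 to CCNE1 was 2.65, 3.08 and 2.73, against 5.71, 4.21 and 4.80. Both ratios were thus lower in the labelled libraries without overlap, whereas both were higher in shPHGDH 4T1. PHGDH mRNA was lower in shPHGDH 4T1 and in the labelled MDA-MB-231 libraries alike. Across the 35 genes Pearson's r of the log2 fold changes was -0.24, against -0.04 across all 9502 matched genes; genes are not independent replicates, and the experiments differ in species, line and vector.

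**Figure D4:**
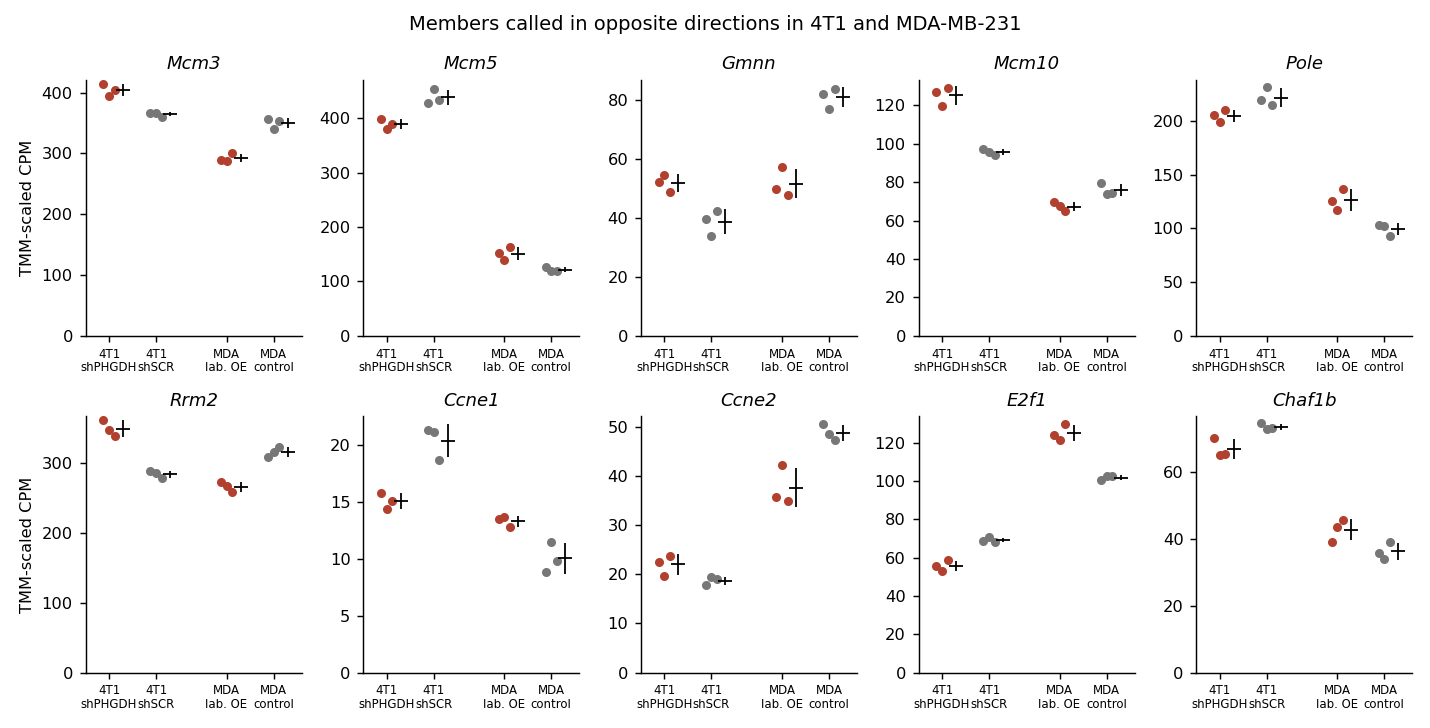
TMM-scaled CPM in each library (points; bars are mean ± SD, n = 3) of the 10 genes called in opposite directions, with shPHGDH and shSCR 4T1 on the left of each panel and labelled PHGDH-overexpressing and control MDA-MB-231 on the right. In each panel the groups of one experiment lie in the opposite order to those of the other; levels are not compared between the 2 tables, which were scaled separately.

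In the co-cultures the summed level of the replication genes was above that of the line alone in 4T1 cells sorted from Bend3, and below it in EMT6.5 cells sorted from Bend3. Each of these states is 1 library, so ratios carry only exact 95% counting intervals, which do not cover the spread between cultures, and there is no test. A gene was counted past 1.5-fold, with a mean of at least 5 CPM over the pair. Intervals narrow as counts rise. The share of all genes with an interval above or below 1 is not given here, so counts of such intervals have no background. In 4T1 the 35 genes summed to 2726 CPM with Bend3 and 2050 CPM alone, a ratio of 1.33 (interval 1.29 to 1.37). The largest rises in CPM within this sum were those of Mcm7 (147.6 alone, 406.0 with Bend3) and Lig1 (145.1 alone, 260.3 with Bend3). In EMT6.5 they summed to 1836 CPM with Bend3 and 2800 CPM alone, a ratio of 0.66 (0.64 to 0.67).

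In 4T1, 34 of the 35 genes passed the level; 12 were at least 1.5-fold higher with Bend3, against 26.2% of all genes, and 0 were lower, against 22% of all genes. The median log2 ratio was 0.32, against 0.04 over all genes, and 16 intervals lay above 1 and 2 below. Gins2 was at 30.2 CPM with Bend3 and 8.38 CPM alone (ratio 3.60, interval 2.503 to 5.294). Pold1 was at 32.1 CPM with Bend3 and 11.4 CPM alone (2.81, 2.04 to 3.94). Cdc6 was at 22.6 CPM with Bend3 and 8.17 CPM alone (2.77, 1.89 to 4.14). These were low-count genes in 4T1 alone, and their intervals are wide. Mcm7 was at 406.0 CPM with Bend3 and 147.6 CPM alone (2.75, 2.52 to 3.01), with far more counts behind it. Ccne2 (2.75), Pola2 (1.93), Lig1 (1.79), Gmnn (1.79), E2f1 (1.73) and Mcm4 (1.59) followed. The intervals of Mcm2, Mcm5 and Mcm6 held 1, so that within the ring Mcm7, Mcm4 and Mcm3 (1.31, 1.18 to 1.45) were higher and the other 3 were not distinguishable at this depth. Pole (0.70) and Rrm1 (0.73) had intervals below 1.

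In EMT6.5 all 35 genes passed the level; 14 were at least 1.5-fold lower with Bend3, against 16.2% of all genes, and 2 higher, against 14.1%. The median log2 ratio was -0.56, against -0.01 over all genes, and 26 intervals lay below 1 and 2 above. Licensing genes were lower throughout, 8 of 9 past 1.5-fold and all 9 intervals below 1. Mcm2 was at 62.9 CPM with Bend3 and 157.1 CPM alone (0.40, 0.35 to 0.45), and Mcm4 at 52.2 CPM with Bend3 and 122.3 CPM alone (0.43, 0.37 to 0.49). Ccne1 had the lowest ratio (0.39), and Mcm10 (0.46), Pold1 (0.46), Rrm1 (0.49), Cdc6 (0.50), Mcm7 (0.57), Gmnn (0.58) and E2f1 (0.59) were also lower. The exceptions were the primase subunits: Prim1 was at 17.0 CPM with Bend3 and 10.6 CPM alone (1.60, 1.17 to 2.20), and Prim2 at 15.3 and 9.96 CPM (1.54, 1.11 to 2.13). In 4T1 the intervals of both primase genes held 1.

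**Figure D5:**
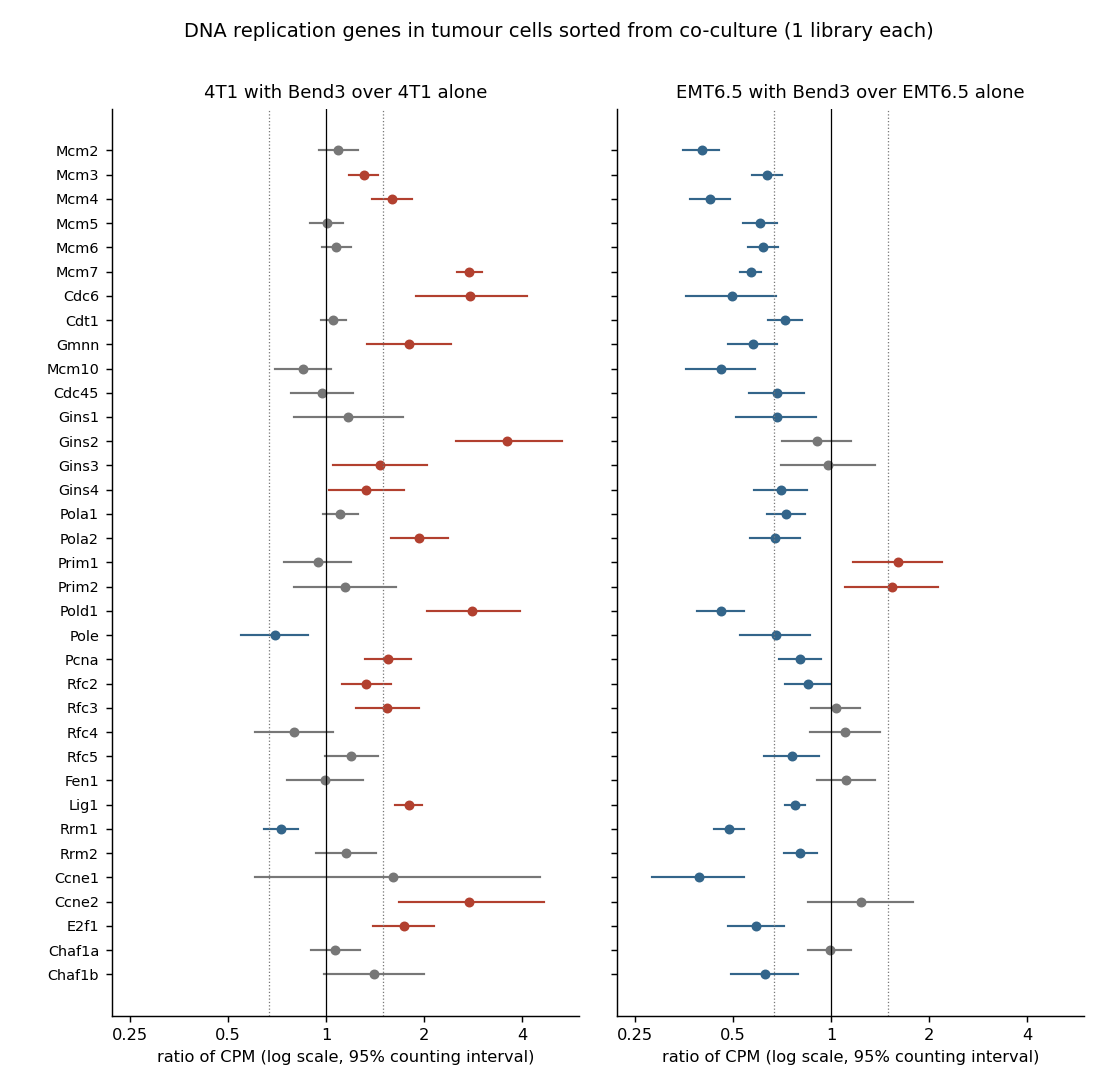
Ratio of CPM in tumour cells grown with Bend3 to the same line alone for each of the 35 genes (points, log axis) with exact 95% counting intervals (lines), in 4T1 (left) and EMT6.5 (right), 1 library per state. Red intervals lie above 1, 16 in 4T1 and 2 in EMT6.5, blue ones below 1, 2 in 4T1 and 26 in EMT6.5, and dotted lines mark 1.5-fold either way.

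Of the 34 genes that passed the level in both lines, 27 had a ratio above 1 in 4T1, against 51.5% of all 9390 such genes, and 28 a ratio below 1 in EMT6.5, against 51.1%. Both held for 24 of the 34, against 23.4% of all genes, and 3 had the reverse, against 20.7%. Past 1.5-fold, 6 of the 34 (Mcm4, Mcm7, Cdc6, Gmnn, Pold1 and E2f1) were higher in 4T1 and lower in EMT6.5, against 3.44% of all genes, and 0 had the reverse, against 1.59%. Not every gene differed between the lines: Pole (0.70 in 4T1 and 0.68 in EMT6.5) and Rrm1 (0.73 and 0.49) had intervals below 1 in both. A fit over both lines with line as a block had 1 residual degree of freedom. It called 0 of the 35 genes by edgeR, with 0 at an unadjusted p under 0.05 and a lowest adjusted p of 0.653. Over all 12005 genes it called 0.292%, and 8.05% had an unadjusted p under 0.05. The fit tests the average over both lines, in which opposite changes cancel. Its lack of calls therefore does not show that either line was unchanged. The sorted 4T1 library held 508.2 CPM summed over 16 endothelial markers, against 193 CPM in 4T1 alone (ratio 2.63, 2.44 to 2.85), with Pecam1 at 30.4 and 7.74 CPM. In EMT6.5 the sums were 172.8 CPM with Bend3 and 164.5 CPM alone (1.05, 0.96 to 1.15). Bend3 grown alone had a lower sum than either tumour line alone, 1344 CPM against 2050 in 4T1 and 2800 in EMT6.5. The part of carried-over cells in the ratios was not tested.

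Bend3 cells had somewhat less replication mRNA after either co-culture. Both ratios share the single Bend3 library grown alone, so they are not independent of each other. With 4T1 the 35 genes summed to 1162 CPM, against 1344 CPM in Bend3 alone (0.86, 0.83 to 0.90), and 3 were past 1.5-fold higher (9.11% of all genes) and 6 lower (7.94%). With EMT6.5 they summed to 1120 CPM, against the same 1344 CPM (0.83, 0.80 to 0.86), with 3 higher (8.41%) and 10 lower (8.41%). Gins2 was at 7.84 CPM with 4T1 and 4.90 CPM with EMT6.5, against 15.5 CPM alone (ratios 0.51 and 0.32, intervals 0.34 to 0.75 and 0.19 to 0.50). Mcm2 was at 48.1 CPM with 4T1 and 43.0 CPM with EMT6.5, against 81.1 CPM alone (0.59 and 0.53). Pcna went the other way, at 33.4 CPM with 4T1 and 35 CPM with EMT6.5, against 22.7 CPM alone (1.47 and 1.54, intervals 1.15 to 1.89 and 1.21 to 1.98). The other genes past 1.5-fold with 4T1 were Gins3 (1.89), Cdc6 (1.55) and Ccne1 (1.54, with an interval that held 1) upward and Mcm5 (0.58), Prim2 (0.63), Gmnn (0.63) and Fen1 (0.65) downward. With EMT6.5 they were Ccne1 (1.80) and Ccne2 (1.55) upward and, beside Gins2 and Mcm2, Gins1 (0.46), Prim2 (0.56), Pole (0.58), Cdt1 (0.62), Mcm5 (0.64), Prim1 (0.65), Fen1 (0.65) and Lig1 (0.67) downward. The Bend3 library sorted from 4T1 held 55.6 CPM summed over 16 epithelial markers, against 2.25 CPM alone, and the one sorted from EMT6.5 held 8.16 CPM; their part in the ratios was not tested.

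The lines grown alone differed in which replication genes were most abundant. Per kb of transcript, Cdt1 was the highest of the 35 in 4T1 (101 CPM per kb, interval 94.8 to 107), ahead of Mcm6 (58.1, 54.1 to 62.3), without overlap of intervals. Mcm7 (49.8, 46.2 to 53.7) came next and was not distinguishable from Mcm3 (48.0, 44.5 to 51.8) or Lig1 (45.7, 42.3 to 49.3). In EMT6.5 the order was Mcm7 (116, 111 to 120), Lig1 (98.5, 94.7 to 102) and Mcm6 (57.2, 54.2 to 60.3), where Mcm6 was not distinguishable from Gmnn (56.4, 51.7 to 61.5) or Mcm3 (54.3, 51.4 to 57.3). In Bend3 it was Mcm3 (44.9, 41.4 to 48.6), Lig1 (35.8, 32.7 to 39.1) and Mcm7 (35.4, 32.3 to 38.8), where Lig1 and Mcm7 were not distinguishable from each other or from Rfc3 (29.3, 25.1 to 34.1). Ccne1 was the lowest in 4T1, with 8 counts (0.86 CPM per kb, 0.37 to 1.69), Ccne2 in EMT6.5 (2.95, 2.31 to 3.71) and Cdc6 in Bend3 (1.70, 1.19 to 2.37). The intervals cover counting error only, and 1 library per line gives no spread between cultures. The 4T1 order was not that of the replicated shSCR 4T1 libraries, which come from another set of tables. There Cdt1 averaged 68.3 CPM per kb, below Mcm6 (171.9), Rrm2 (129.6) and Mcm5 (129.5), and Ccne2 (6.22) lay below Ccne1 (10.2).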

How the data were processed

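RNA was extracted with TRIzol, made into libraries with a stranded mRNA kit and sequenced as single 50 bp reads, per the labels' protocols. Trim Galore 0.5.0, HISAT2 2.1.0, HTSeq and the mouse build GRCm38/mm10 are named in the submitters' processing notes. For the strand setting of the counting, nothing is given in the sources used here. Files deposited by the authors hold raw counts per gene, and 10 further library columns of the knockdown table were not used.

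Counts were scaled by TMM, filtered with filterByExpr and tested with edgeR 4.0.16 (quasi-likelihood F-test, Benjamini-Hochberg adjustment over all tested genes, threshold 0.05) in R 4.3.3; within each experiment the 3 libraries per arm entered 1 fit. DESeq2 1.42.0, RLE factors, library totals, no filter, leave-one-out, lane and replicate terms were alternatives. The fits were also run on simulated counts with known fold changes, larger than most of those reported for the 35 genes. The simulation therefore does not cover changes of the size of most seen here. It also held no chromosome or lane shifts. Co-culture ratios have exact 95% intervals. Transcript lengths and chromosomes came from GENCODE vM21 annotation, and promoters from RefSeq; 95.5% of knockdown genes were placed. All 35 genes are named, with values of every library for the called gene of largest change per role and for genes called in opposite directions. Up to 3 called genes are named per pathway list. A limit of 10 genes past 1.5-fold per co-culture was set, but more were named in EMT6.5 and in Bend3 with EMT6.5. Other genes given with library values were chosen after their values were seen, as were the pair ratios, the subunit spread and the 4 promoters shown. The genes and lists were chosen with earlier results of these data known.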

Additional observations from a re-analysis of the deposited data

Results flagged for a closer look

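The summed CPM of the 35 genes had a ratio of 1.33 in 4T1 and 0.66 in EMT6.5, with 1 library per state. Past 1.5-fold in opposite directions, the log2 ratios in 4T1 were 1.49 for Pold1, 1.47 for Cdc6, 1.46 for Mcm7, 0.84 for Gmnn, 0.79 for E2f1 and 0.67 for Mcm4, while all 6 were below 0 in EMT6.5. The difference between the lines was not tested.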

How the results depend on the processing

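Of the genes called, 21 of 27 in the knockdown and 15 of 18 in MDA-MB-231 kept their call under every alternative fit. Leaving out 1 library gave 11 to 14 of the 35 genes higher and 13 to 15 lower in the knockdown, and 10 to 14 higher and 5 to 9 lower in MDA-MB-231. Over all genes it gave 3248 to 3405 higher and 3040 to 3257 lower in the knockdown, and 3245 to 3925 higher and 3352 to 4183 lower in MDA-MB-231. With a replicate block the calls were 3356 higher and 3229 lower in the knockdown (12 and 15 of the 35 genes), and 3758 and 4003 in MDA-MB-231 (12 and 6). Deviations of same-numbered libraries from their group means correlated between -0.056 and 0.049. Such values cannot show whether cultures were paired, and the labels do not say. Subtracting the chromosome median turned the called gene Mcm5 to 0.0820 (log2), moved 20 more of the 35 genes by over their SE (Gins4 to -0.04, Cdc45 to 0.08, Gmnn to 0.17) and left 14 within it. With library totals, an alternative for the sums chosen after seeing the data, the summed CPM differed by -2.67% in the knockdown and 0.27% in MDA-MB-231. At 2-fold, 5 genes were higher in 4T1 with Bend3, 0 higher and 7 lower in EMT6.5 with Bend3, 0 higher and 0 lower in Bend3 with 4T1, and 0 higher and 2 lower in Bend3 with EMT6.5. For the co-cultures, shares of all genes at 2-fold or with library totals are not given here, so these counts have no background. With library totals, 9 genes were past 1.5-fold higher and 1 lower in 4T1, and 1 higher and 18 lower in EMT6.5. Bend3 with EMT6.5 then had 3 higher and 7 lower, and Bend3 with 4T1 had 3 and 6. In the knockdown, library totals gave 11 of the 35 genes higher and 18 lower, against 3027 higher and 4023 lower over all genes. Co-culture depth was 4.27 to 7.67 M counts, so ratios of genes under about 10 CPM have wide intervals. The causes of these shifts were not tested.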
